A study of Homo sapiens with 6 samples.

Results

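The genes described here are YAP1 and WWTR1, which encode the coactivators YAP and TAZ, TEAD1, which encodes one of their DNA-binding partners, and 7 established target genes, CTGF, CYR61, ANKRD1, AMOTL2, FJX1, AJUBA and LATS2. These 10 genes were taken by name from a table of 58735 genes, and each name matched 1 row. CTGF and CYR61 are the table's names for the genes now called CCN2 and CCN1. The data are 6 RNA sequencing libraries of HuCCT1, an established human cholangiocarcinoma (bile duct cancer) cell line. In 3 libraries, labelled siC1QBP, the cells had received a small interfering RNA against C1QBP, whose product lies mainly in the mitochondrial matrix. The other 3, labelled siNC and wild type, had received the control RNA. The cells of both groups are otherwise the same line, a cell model of 1 tumour, and for the siRNA neither sequence, dose nor time is given in the sources used here.

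YAP and TAZ have no DNA-binding domain of their own. In the nucleus they bind TEAD factors and switch on genes for growth, matrix and adhesion, and the kinases LATS1 and LATS2 of the Hippo pathway phosphorylate them and keep them in the cytoplasm. Several target genes encode regulators of the same pathway, LATS2 and AMOTL2 among them, so their RNA is read both as an output and as feedback. In the biliary tree YAP is known for its part in bile duct development and in cholangiocarcinoma.

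The target genes did not move together. CTGF and CYR61, a pair of related secreted matricellular proteins, rose in siC1QBP cells, to 1.37 times (95% interval 1.20 to 1.58) and 1.13 times (1.06 to 1.20) their control level. FJX1 and AJUBA fell, to 0.752 (0.692 to 0.818) and 0.853 (0.796 to 0.915) of it. ANKRD1, AMOTL2 and LATS2 did not pass the test, nor did YAP1, WWTR1 or TEAD1. All 10 genes passed the low-count filter. Of them 2 were called higher, 2 lower and 6 neither, with edgeR's quasi-likelihood test and an adjusted p under 0.05. Over the 15530 genes tested, 14.3% were called, 6.47% higher and 7.84% lower. The median log2 fold change of the 10 genes was 0.004, against 0.003 for all genes tested. The siC1QBP and siNC libraries did not overlap in 7 of the 10 genes, against 32.6% of all genes tested.

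**Figure D1:**
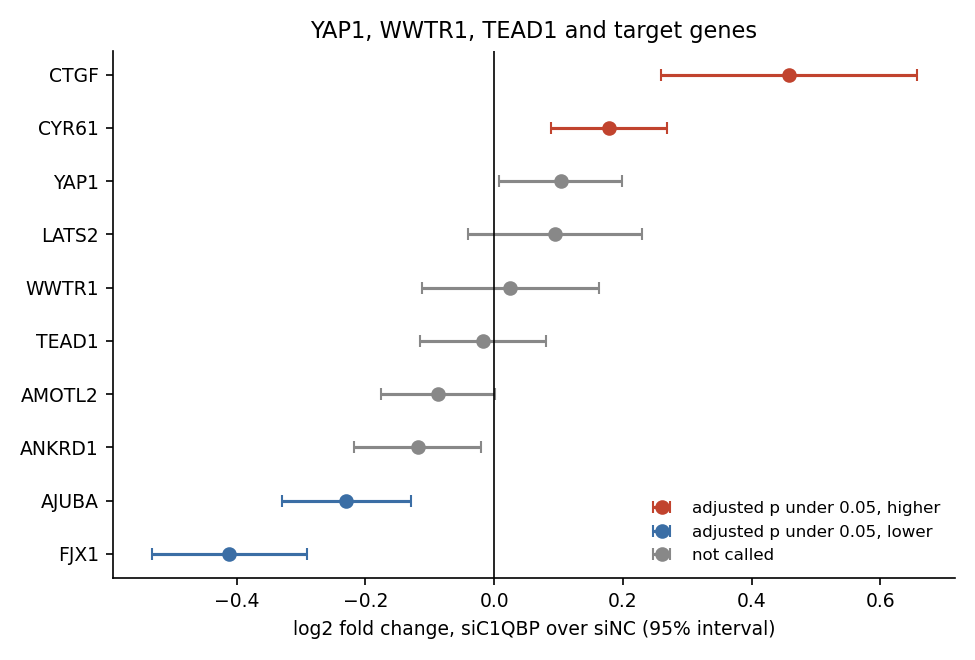
Log2 fold change of siC1QBP over siNC for the 10 genes, with 3 libraries in each group; points are edgeR estimates, bars their 95% intervals, and colour marks an adjusted p under 0.05. CTGF (0.46) and CYR61 (0.18) lie above 0 and AJUBA (-0.23) and FJX1 (-0.41) below it, with the other 6 genes between -0.12 and 0.10.

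Total counts were 17122252 to 20416243 per library, so a gene with no count could hold up to 0.147 to 0.175 CPM (read counts relative to library sizes scaled by TMM), the level of 3 counts and a limit for counting error only. C1QBP itself stood at 57.6 to 60.0 CPM in siC1QBP and 175 to 185 CPM in siNC libraries. All 9 biliary epithelial markers passed the filter, from CFTR at 21.4 ± 1.57 to KRT7 at 3766 ± 74.5 CPM in siNC cells (SD, n = 3). Their summed level was 7792 to 8170 CPM in siC1QBP and 8598 to 9087 CPM in siNC libraries, with KRT7 and KRT19 called lower and CFTR higher, and its part in the results below was not tested. No hepatocyte marker of 6 passed the filter, and their summed level was at most 0.667 CPM. The summed levels of fibroblast (8 genes), endothelial (6) and leukocyte markers (7) were 10.4 to 13.97, 3.41 to 4.61 and 8.08 to 9.78 CPM in siC1QBP and 9.69 to 12.2, 2.85 to 4.07 and 8.56 to 9.97 CPM in siNC libraries. TTR and CD3E had no count in any library. Replicate 1 of siC1QBP stood apart from its group in a chi-square comparison of libraries. Values without it are given for some, not all, of the genes whose call, sign or size depended on it. Nothing in the labels ties the replicates to separate cultures. The p-values therefore measure only the spread between these libraries, which may be technical.

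The coactivators were examined first. YAP1 (ENSG00000137693; hg38 chromosome 11, 102110461 to 102233423, plus strand) stood at 269, 255 and 271 CPM in siC1QBP replicates 1, 2 and 3 and at 247, 237 and 257 CPM in the siNC libraries. The groups overlapped by a single pair of libraries, siC1QBP replicate 2 lying just below siNC replicate 3. The log2 fold change was 0.10 (SE 0.04; 95% interval 0.01 to 0.20). The unadjusted p was 0.0348 and edgeR's adjusted p = 0.137, so YAP1 did not pass. Under the 17 other ways of fitting the data, its value stayed between 0.07 and 0.13 with an adjusted p from 0.0515 to 0.444.

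WWTR1 (ENSG00000018408; chromosome 3, 149517235 to 149736714, minus strand), the TAZ gene, stood at 79.1, 68.3 and 69.8 CPM in siC1QBP and 67.7, 69.7 and 76.2 CPM in siNC libraries. The groups were interleaved, and the highest value came from siC1QBP replicate 1. The log2 fold change was 0.02 (95% interval -0.11 to 0.16; edgeR adjusted p = 0.841), and without siC1QBP replicate 1 it was -0.05. On the linear scale that interval runs from 0.925 to 1.12 times the control level. Per kilobase of exon, the ratio of YAP1 to WWTR1 RNA was 4.91 ± 0.336 in siC1QBP and 4.64 ± 0.206 in siNC cells (SD, n = 3). The difference was smaller than the SD in siC1QBP cells, but larger than that in siNC cells.

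TEAD1 (ENSG00000187079; chromosome 11, 12674591 to 12944483, plus strand) stood at 238, 222 and 222 CPM in siC1QBP and 240, 224 and 226 CPM in siNC libraries. Replicate 1 was the highest library in both groups and the groups overlapped. Its log2 fold change was -0.02 (SE 0.05; 95% interval -0.12 to 0.08; edgeR adjusted p = 0.848), and -0.05 without siC1QBP replicate 1. The sign of both WWTR1 and TEAD1 changed between ways of fitting, and neither was called under any of the 17. The interval of TEAD1 on the linear scale was 0.923 to 1.06.

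The other TEAD genes put TEAD1 in proportion. Per kilobase of exon, TEAD4 made up 51.7% ± 1.59, TEAD1 36.2% ± 1.18, TEAD3 12.1% ± 0.575 and TEAD2 0.119% ± 0.131 of the summed TEAD level in siNC cells (SD, n = 3). In siC1QBP cells the shares were 48.9% ± 1.22, 36.2% ± 1.57, 14.8% ± 0.644 and 0.151% ± 0.0788. The sum of the 4 was 61.1 ± 1.18 CPM per kilobase in siC1QBP and 61.9 ± 0.511 in siNC cells. Per kilobase, TEAD4 RNA was thus the most abundant form in both groups. This order rests on the annotated exon lengths used, 10279 bases for TEAD1 and 2272 for TEAD4. Which transcripts of each gene the cells held was not measured. In CPM, without division by length, TEAD1 was higher (230 against 72.6 CPM in siNC cells). The total differed by less than the SD in siC1QBP cells, but by more than that in siNC cells. The TEAD3 share was higher in siC1QBP cells. TEAD3 rose from 22.7 ± 1.27 CPM in siNC to 27.5 ± 1.13 CPM in siC1QBP cells (log2 fold change 0.27, SE 0.08; edgeR adjusted p = 0.0233). Leaving out replicate 2 or 3 of either group ended this call, with edgeR adjusted p-values up to 0.118. TEAD4, from 72.6 ± 1.70 to 67.9 ± 2.75 CPM, did not pass (log2 fold change -0.10; edgeR adjusted p = 0.250), and TEAD2 fell under the low-count filter.

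CTGF (ENSG00000118523; chromosome 6, 131948176 to 131951373, minus strand) encodes a secreted matricellular protein and is among the most widely used readouts of YAP and TAZ. Its promoter is shown because it carries 3 copies of the TEAD motif within 169 bases of the start. The 249 bases upstream of the gene (RefSeq, GRCh38.p14, chr6:131951374-131951622, minus strand, 5′ to 3′) read as follows, with the motif GGAATG in capitals.
CTGF upstream: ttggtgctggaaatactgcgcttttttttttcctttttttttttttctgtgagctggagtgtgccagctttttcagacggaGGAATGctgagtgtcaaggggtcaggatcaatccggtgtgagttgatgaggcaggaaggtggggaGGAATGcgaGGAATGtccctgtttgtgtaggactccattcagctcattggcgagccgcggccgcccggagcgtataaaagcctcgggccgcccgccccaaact

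CTGF stood at 25.9, 28.2 and 23.3 CPM in siC1QBP and at 20.04, 19.6 and 16.6 CPM in siNC libraries, from 304 to 488 counts per library. Every siC1QBP library lay above every siNC library, and both groups spread more than any other of the 10 genes, by 9.40% and 10.2% of their means. The log2 fold change was 0.46 (SE 0.09; 95% interval 0.26 to 0.66; edgeR adjusted p = 0.00362), so CTGF rose. The call held under all 17 other ways of fitting, with log2 fold changes from 0.38 to 0.53 and an adjusted p of at most 0.0323. The gene is also activated by TGF-beta and by serum response factor.

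CYR61 (ENSG00000142871; chromosome 1, 85580761 to 85583962, plus strand), the close relative of CTGF and also an immediate early gene, was the most abundant of the 10. It stood at 602, 652 and 655 CPM in siC1QBP and 565, 570 and 552 CPM in siNC libraries. The groups did not overlap, with siC1QBP replicate 1 nearest to the controls. The log2 rise of CYR61 was 0.18 (SE 0.04; 95% interval 0.09 to 0.27; edgeR adjusted p = 0.00964). This was lost without siC1QBP replicate 3 (0.16, adjusted p = 0.0539) and without siNC replicate 3 (0.16, adjusted p = 0.0759), and without siC1QBP replicate 1 it was 0.21 (adjusted p = 3.35e-05; edgeR throughout). Its share of the counts of all 10 genes together was 35.6% ± 1.504 in siC1QBP and 32.1% ± 0.497 in siNC cells (SD, n = 3).

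ANKRD1 (ENSG00000148677; chromosome 10, 90912096 to 90921276, minus strand) encodes an ankyrin repeat protein that is abundant in stressed heart muscle and is a standard YAP target. Of the promoters examined, its window held the second largest number of TEAD motifs, at 220 and 128 bases before the RefSeq start. The first lies upstream of the gene in GENCODE and the second within its first GENCODE exon. Each is shown with its flanks (minus strand, GRCh38.p14, chr10:90921290-90921319 and chr10:90921198-90921227, motif in capitals).
ANKRD1 first motif: atcaccaccaaaGGAATGgccctctcacat
ANKRD1 second motif: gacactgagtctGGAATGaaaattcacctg

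ANKRD1 stood at 120, 117 and 119 CPM in siC1QBP and at 133, 129 and 125 CPM in siNC libraries. The siC1QBP libraries were the lower in every case, the opposite order to CTGF and CYR61. The log2 fold change was -0.12 (SE 0.05; 95% interval -0.22 to -0.02), which did not pass after adjustment over all genes (edgeR adjusted p = 0.0984). It was not called under any other way of fitting, and with each library's trend with gene length removed it was -0.04 (edgeR adjusted p = 0.645).

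Next came the genes that regulate the pathway whose output they are. AMOTL2 (ENSG00000114019; chromosome 3, 134355874 to 134375479, minus strand), an angiomotin-family protein that binds YAP and holds it at junctions, stood at 216, 207 and 206 CPM in siC1QBP and 221, 225 and 222 CPM in siNC libraries. All siC1QBP libraries were lower, replicate 1 by the least. The log2 fold change was -0.09 (95% interval -0.18 to 0.00; edgeR adjusted p = 0.182). Without siC1QBP replicate 1 it was called lower (-0.11; edgeR adjusted p = 0.0459), the only setting that called it.

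LATS2 (ENSG00000150457; chromosome 13, 20973032 to 21061547, minus strand), a kinase that phosphorylates YAP and TAZ, had 41.9, 39.2 and 38.2 CPM in siC1QBP and 37.8, 37.0 and 36.9 CPM in siNC libraries. The groups were separated by a narrow gap between siC1QBP replicate 3 and siNC replicate 1. It did not pass (log2 fold change 0.09, 95% interval -0.04 to 0.23; edgeR adjusted p = 0.361). The value was 0.05 without siC1QBP replicate 1, the highest library, and LATS2 was not called under any of the 17 other ways of fitting.

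FJX1 (ENSG00000179431; chromosome 11, 35618419 to 35620868, plus strand) is the human counterpart of four-jointed, a fly kinase that acts on the cadherins Fat and Dachsous upstream of the Hippo pathway. It stood at 60.6, 64.3 and 59.8 CPM in siC1QBP and at 77.3, 85.9 and 82.2 CPM in siNC libraries. The groups were far apart compared with their spread, with an SD of 2.42 and 4.34 CPM against a difference of means from 81.8 to 61.6 CPM. FJX1 had a log2 fold change of -0.41 (SE 0.06; 95% interval -0.53 to -0.29; edgeR adjusted p = 0.000191), the smallest p of the 10 genes. All 17 alternatives kept the call, with values between -0.46 and -0.35.

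AJUBA (ENSG00000129474; chromosome 14, 22971174 to 22982642, minus strand), a LIM protein that binds LATS kinases at adherens junctions, stood at 127, 133 and 133 CPM in siC1QBP and at 146, 156 and 158 CPM in siNC libraries. No siC1QBP library reached the lowest siNC library. AJUBA had a log2 fold change of -0.23 (SE 0.05; 95% interval -0.33 to -0.13; edgeR adjusted p = 0.00388), and the call held under all 17 alternatives, with values from -0.27 to -0.20 and an adjusted p of at most 0.0384.

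**Figure D2:**
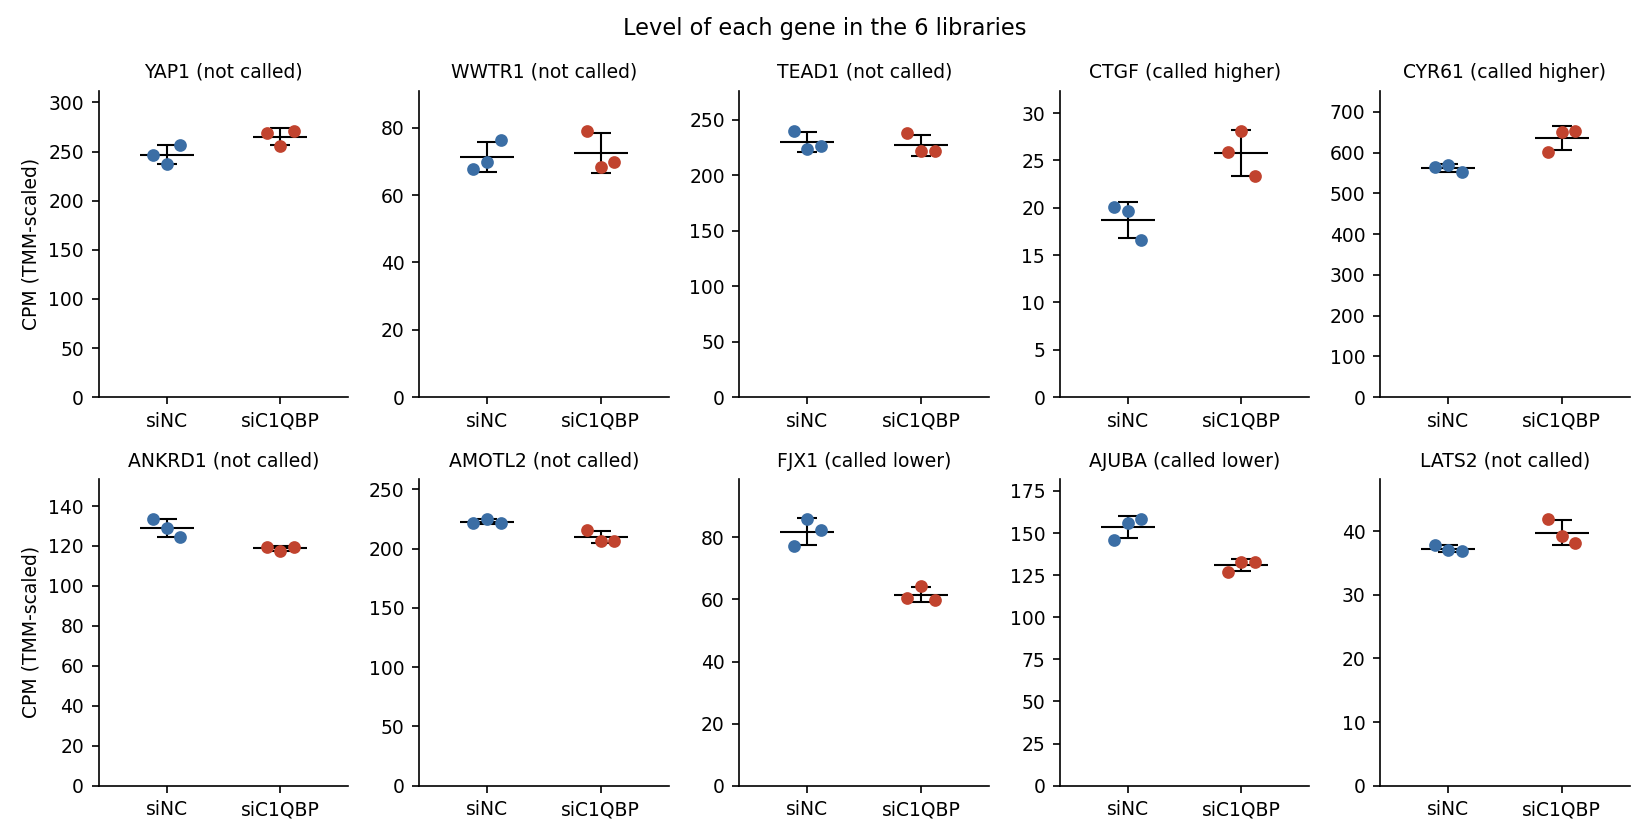
CPM of each of the 10 genes (vertical axes, each from 0) in the 3 siNC (blue) and 3 siC1QBP libraries (red, replicates 1 to 3 from left to right); the wide bar is the group mean and the whiskers are 1 SD. CTGF, CYR61 and LATS2 lie higher in every siC1QBP library and ANKRD1, AMOTL2, FJX1 and AJUBA lower, while YAP1, WWTR1 and TEAD1 overlap.

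The 10 genes spanned a wide range of abundance. On the length-scaled level in siNC cells the order was CYR61 (229 CPM per kilobase), ANKRD1 (65.2), YAP1 (39.2), AMOTL2 (37.2), FJX1 (33.4), AJUBA (25.7), TEAD1 (22.4), WWTR1 (8.46), CTGF (8.01) and LATS2 (6.68). The ratio of CYR61 to CTGF RNA on that scale was 28.8 ± 2.65 in siNC and 23.7 ± 2.68 in siC1QBP cells (SD, n = 3). Of the neighbours in this order, WWTR1 (8.04 to 9.06) and CTGF (7.08 to 8.57) overlapped between siNC libraries. YAP1 (37.7 to 40.7) and AMOTL2 (37.0 to 37.6) came close without overlapping. In siC1QBP cells CTGF (9.97 to 12.04 CPM per kilobase) stood above WWTR1 (8.12 to 9.41), and AJUBA (21.2 to 22.2) and TEAD1 (21.5 to 23.2) overlapped. The order of the other genes was the same in both groups. As plain CPM in siNC cells, the genes lay between the 46.9th percentile of tested genes, CTGF, and the 98.7th, CYR61.

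**Figure D3:**
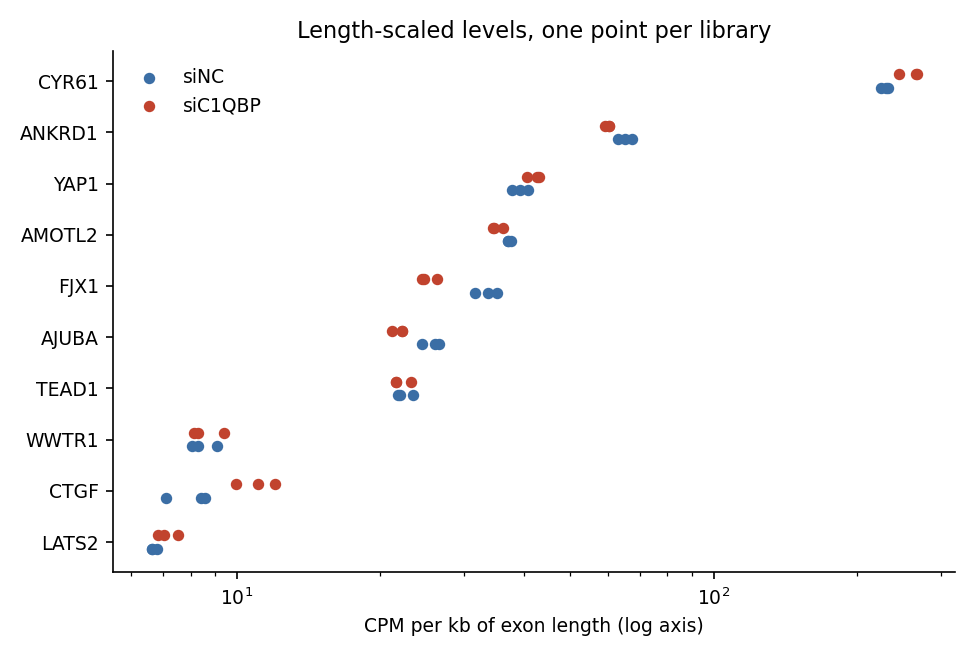
CPM per kilobase of exon length on a log axis, 1 point per library, with siNC in blue and siC1QBP in red, genes ordered by their siNC mean. CYR61 lies far to the right of the rest, and the separation between groups is clearest for CTGF, FJX1 and AJUBA.

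Promoter windows from RefSeq (GRCh38.p14; 250 bases before to 50 after each start, 300 in all) matched 8 of the 10 genes in 11 windows; TEAD1 and CYR61 had no entry. The TEAD motif was searched as GGAATG or, for the other strand, CATTCC. It was present in a window of 6 genes. Counted by window, it was in 6 of the 11, and in 14.03% of all 35116 windows. CTGF, with 3 copies, shares that number or more with 0.128% of all windows, and ANKRD1, with 2, shares at least that with 1.37%. YAP1, AMOTL2, AJUBA and LATS2 had 1 copy each, in 1 of their windows, and the windows of WWTR1 and FJX1 had none. The 4 single sites are shown to let them be set against those of CTGF and ANKRD1 (5′ to 3′ on the strand of the gene, motif in capitals; YAP1 chr11:102110273-102110302, AMOTL2 chr3:134374499-134374528, AJUBA chr14:22976884-22976913, LATS2 chr13:21061560-21061589).
YAP1: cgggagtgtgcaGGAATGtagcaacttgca
AMOTL2: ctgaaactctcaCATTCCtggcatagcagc
AJUBA: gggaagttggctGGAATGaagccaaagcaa
LATS2: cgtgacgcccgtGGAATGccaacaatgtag

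The AMOTL2 and AJUBA sites belong to alternative starts inside the gene and lie in exons of the longer forms, the YAP1 site lies in an exon of a neighbouring transcript (AP001527.2), and the LATS2 site begins at base 10 of the RefSeq transcript, which starts upstream of the GENCODE gene. The AP-1 motif, searched as TGACTCA and its reverse complement TGAGTCA, and the CArG box bound by serum response factor, searched on both strands, were in none of the 11 windows. They occur in 4.95% and 1.29% of all windows. The number of motifs did not order the fold changes: CTGF with 3 rose, ANKRD1 with 2 was not called, and of the genes that fell AJUBA had 1 and FJX1 none. A match describes letters only, and binding was not measured here.

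The TEAD genes and the Vestigial-like cofactors, which compete with YAP for TEAD, held calls in 1 direction. Of 6 tested genes in this list of 8, 3 rose and none fell, with a median log2 fold change of 0.29. The shares over all genes tested were 6.47% higher and 7.84% lower. VGLL4, known as an antagonist of YAP at TEAD, averaged 33.1 ± 1.33 CPM in siC1QBP and 26.8 ± 1.13 CPM in siNC cells, a rise of 0.30 in log2 (edgeR adjusted p = 0.00841). VGLL3 averaged 23.6 ± 2.14 and 19.2 ± 0.779 CPM, a rise of 0.30 in log2 (edgeR adjusted p = 0.0287), and TEAD3 is given above. VGLL3 lost its call with the gene-length trend removed (0.23; edgeR adjusted p = 0.0760) and when 1 of 5 libraries was left out, siC1QBP replicate 2 excepted (adjusted p up to 0.111). For VGLL4 this happened in 1 setting, with siNC replicate 2 left out (edgeR adjusted p = 0.0575). Without that library none of the list was called, and without siC1QBP replicate 3 or siNC replicate 3 the number was 1.

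In the Hippo kinase core, the kinases, scaffolds and activators that lead to phosphorylation of YAP and TAZ, 1 of 21 tested genes rose and none fell, with a median of 0.02. The gene that rose was MAP4K4, a kinase that can activate LATS1 and LATS2, at 357, 320 and 315 CPM in siC1QBP and 280, 268 and 275 CPM in siNC libraries (log2 fold change 0.27, SE 0.05; edgeR adjusted p = 0.00171). The groups did not overlap and siC1QBP replicate 1 was the highest. Without that library the log2 fold change of MAP4K4 was 0.21, still called. The share called, 1 of 21, was below the 14.3% of all genes. With the gene-length trend removed 4 genes of the core were lower, and without siC1QBP replicate 1 also 4 were lower and 2 higher.

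Among 29 tested regulators at junctions, in polarity and STRIPAK complexes and among LIM proteins, none rose and 2 fell, FJX1 and AJUBA. Both are among the 10 genes, and the 26 other tested genes held no call. Over all genes tested, 7.84% were called lower. The median was -0.05. The most abundant other members, alpha-catenin CTNNA1 (745 ± 31.4 against 695 ± 9.78 CPM; log2 fold change 0.10, edgeR adjusted p = 0.116) and the protocadherin FAT1 (373 ± 21.6 against 352 ± 13.7 CPM; 0.08, edgeR adjusted p = 0.270), did not pass. CTNNA1 passed when libraries were scaled by total count alone (0.13; edgeR adjusted p = 0.0387) or at a minimum of 10 CPM (0.12; 0.0409). Without siC1QBP replicate 1 CTNNA1 was at 0.06 and FAT1 at 0.03, and with the gene-length trend removed CTNNA1 was at 0.06 and FAT1 just below 0 (-0.0041). Scaling by total count or the 10 CPM minimum left 3 genes of this list higher, and without siC1QBP replicate 1 5 were lower.

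A signature of 22 genes used as a readout of YAP and TAZ in tumours holds 6 of the 10 genes. Of its 21 tested genes 3 rose, 2 fell and 16 were not called, with a median of 0.03. Of the 15 tested genes outside the 10, 1 rose and 1 fell, near the shares of all genes tested (6.47% higher, 7.84% lower). DOCK5, an exchange factor for RAC, rose from 102 ± 3.87 to 115 ± 5.10 CPM (log2 fold change 0.17; edgeR adjusted p = 0.0350). F3, tissue factor, fell from 653 ± 13.7 to 585 ± 4.42 CPM (-0.16; edgeR adjusted p = 0.0105). Both calls were lost with the gene-length trend removed, at 0.08 (adjusted p = 0.249) and -0.11 (adjusted p = 0.0636, edgeR), and DOCK5 also lost it when siC1QBP replicate 1 or 2, or a control library, siNC replicate 2 or 3, was left out, and when genes with as little as 1 count were tested. The signature's rises numbered 1 without siNC replicate 3, and its falls 4 without siC1QBP replicate 1.

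CYR61, CTGF and ANKRD1 are also targets of serum response factor with its actin-regulated cofactor MRTF. Of 21 tested genes in a list of those targets 6 rose, 2 fell and 13 were not called, with a median of 0.12. Apart from CYR61, CTGF and ANKRD1, 4 of 18 tested genes rose and 2 fell. Over all genes tested, 6.47% were called higher and 7.84% lower. FILIP1L, which associates with filamin A, rose from 27.1 ± 1.96 to 36.5 ± 3.56 CPM (log2 fold change 0.43; edgeR adjusted p = 0.00226), close in size to CTGF. The LIM protein gene FHL1 (0.38), caldesmon CALD1 (0.16) and beta-actin ACTB (0.13) rose too, with edgeR adjusted p = 0.0201, 0.0252 and 0.0231. SRF itself fell (-0.22; edgeR adjusted p = 0.0193), as did tropomyosin TPM1 (-0.18; edgeR adjusted p = 0.00570). The rises numbered 2 without siC1QBP replicate 3, where CYR61, FHL1, ACTB and CALD1 were not called, and 3 without siNC replicate 2 or 3. CALD1 was not called with the gene-length trend removed (0.11; edgeR adjusted p = 0.0843), with genes of at least 1 count (0.15; 0.0692), or without replicate 2 or 3 of either group (edgeR adjusted p up to 0.131). ACTB was not called without siC1QBP replicate 3 or any 1 siNC library (edgeR adjusted p up to 0.120), nor FHL1 without siC1QBP replicate 3 or siNC replicate 1 or 2 (up to 0.110). Without siNC replicate 3 the fall of SRF did not pass (edgeR adjusted p = 0.0918), leaving 1 gene lower.

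CYR61 belongs as well to the immediate early genes, induced within minutes by serum or stress. Of 21 tested genes of that class 9 rose, 1 fell and 11 were not called, with a median of 0.13. Apart from CYR61, 8 of 20 tested genes rose and 1 fell. Among all genes tested, 6.47% were called higher and 7.84% lower. EGR1 rose by 1.18 on the log2 scale, FOS by 1.46, NR4A1 by 0.87 and ATF3 by 0.73, each with an edgeR adjusted p of at most 0.00250. The rises of CTGF (0.46) and CYR61 (0.18) were smaller than those of EGR1, FOS, NR4A1 and ATF3, which were named for their small p. FOS and NR4A1 were low, with means of 3.69 and 4.39 CPM in siNC cells. Among the other called genes of this class, FOSB rose by 0.96, DUSP1 by 0.32, IER2 by 0.27 and IER3 by 0.18. CTGF thus rose more than DUSP1, IER2 and IER3, and CYR61 about as much as IER3. MYC fell, with a log2 fold change of -0.23 (edgeR adjusted p = 0.0101). Without siC1QBP replicate 3 the rises numbered 5.

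**Figure D4:**
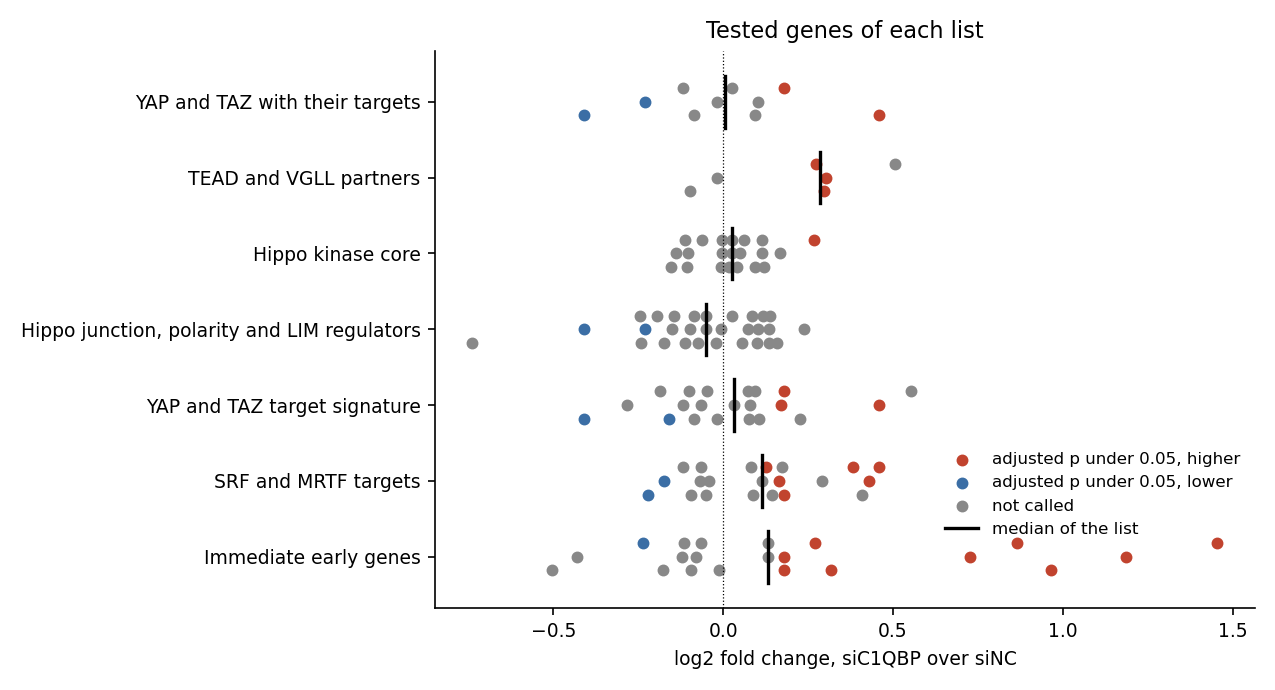
Log2 fold changes of the tested genes of each list, 1 point per gene, coloured by call, with the list median as a black bar; genes can belong to more than 1 list. Calls of the Hippo kinase core and the junction regulators are few, those of the TEAD and VGLL list are all higher, and the immediate early genes reach 1.46.

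Several properties of the libraries moved with the groups. Fold changes followed the exon length of genes. In the bin of 2293 to 3760 bases, where CTGF, CYR61 and FJX1 lie, 3.73% of genes were called higher and 11.6% lower. In the longest bin, from 7823 bases, with WWTR1 and TEAD1, the shares were 12.7% and 3.19%. With the length trend removed per library, CTGF was at 0.52, CYR61 at 0.24, FJX1 at -0.35 and AJUBA at -0.24, all 4 still called. Genes with a count numbered 25001 to 25506 in siC1QBP and 23395 to 23841 in siNC libraries. Mitochondrially encoded genes took 4.20% to 4.80% of counts in siC1QBP and 3.66% to 3.88% in siNC libraries, and leaving them out changed no call among the 10 genes. Transcripts overlapping the 10 genes held few counts. The largest was the antisense gene WWTR1-AS1, with 58 counts over all libraries against 1184 to 1424 per library for WWTR1.

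**Figure D5:**
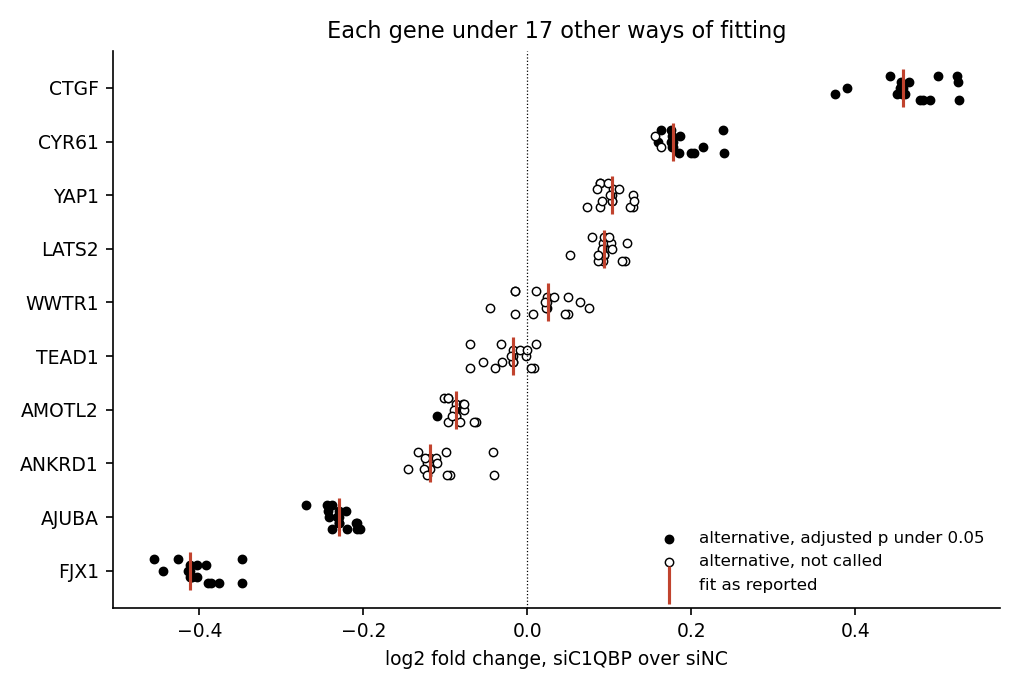
Log2 fold change of each of the 10 genes as reported (red bar) and under 17 other ways of fitting (points, filled where the adjusted p was under 0.05). FJX1, AJUBA and CTGF stayed called throughout, CYR61 lost its call in 2 settings, AMOTL2 gained one in 1, and WWTR1 and TEAD1 crossed 0.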

How the data were processed

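The table the authors deposited holds raw gene counts, whole and not normalized, for 6 libraries (3 siC1QBP, 3 siNC) made with a strand-marking kit, per the labels' protocols. The build is hg38, per the submitters' processing notes. Which aligner, counter and strand setting were used is not given in the sources used here. Identifiers of all 58735 genes matched GENCODE release 29. The table's gene length, equal to the union of GENCODE exons for all 10 genes, gave CPM per kilobase.

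Counts were tested with edgeR 4.0.16 (R 4.3.3; quasi-likelihood, TMM, filterByExpr, treatment as the only term, Benjamini-Hochberg adjustment over 15530 genes). Intervals use edgeR's degrees of freedom. The test was checked on simulated data, and DESeq2 values are kept to 4 digits. Libraries were compared pairwise by chi-square over genes with at least 20 counts: 2.09 to 6.77 per degree of freedom within groups and 7.12 to 18.0 between them, so none was a copy.

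Genes outside the 10 were named by a rule: from each list, the called genes with the smallest p, up to 4 in the commoner direction and 2 in the other, or else the 2 most abundant. The 10 genes and the lists were chosen with earlier results of these data known. Alternatives were DESeq2 1.42.0, limma-voom (limma 3.58.1), other scalings and filters, protein-coding genes only, no mitochondrially encoded genes, gene-length offsets, the replicate number as a block, and each library left out.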

Additional observations from a re-analysis of the deposited data

How the results depend on the processing

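Directions of the 4 called genes held under all 17 alternatives, and their calls too except CYR61 without siC1QBP replicate 3 or siNC replicate 3, which left 1 of the 10 genes higher. With 1 library left out, the 10 genes had 1 to 2 higher and 2 to 3 lower. Over all genes, 2222 calls (1005 higher, 1217 lower) became 1105 to 2583 with a library left out, 524 to 1115 higher and 581 to 1468 lower. The lowest counts were without siNC replicate 2 (1105) and replicate 3 (1178). Of all calls 45.2% were higher, against 58.0% with library size as the only scaling. The cause of these moves was not tested; with a library left out, fewer samples enter the fit.

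For the lists, library size as the only scaling gave 3 junction regulators, 2 kinase core genes and 5 signature genes higher, as did a minimum of 10 CPM (3, 2 and 5). Protein-coding genes only gave 2 junction regulators higher. With genes of at least 1 count, 4 junction regulators and 1 kinase core gene were lower, and without mitochondrially encoded genes 1 kinase core gene was. Gene-length offsets gave 4 kinase core genes and 1 signature gene lower. With a library left out, junction regulators had 0 to 1 higher and 2 to 5 lower, the kinase core 1 to 2 higher and 0 to 4 lower, TEAD and VGLL genes 0 to 2 higher, the signature 1 to 3 higher and 2 to 4 lower, SRF targets 2 to 9 higher and 1 to 3 lower, and immediate early genes 5 to 9 higher.

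Whether replicate numbers pair the libraries was left unsettled, because correlations over all genes tested were small and of both signs for equal numbers. The correlation of deviations from group means was -0.00941 to 0.0433 for equal numbers and -0.0478 to 0.0213 for others. Of 6 libraries, 4 correlated best with their own number. With the replicate number as a block, 3092 genes passed, against 2222 without it. In that fit no call among the 10 genes changed, junction regulators had 2 higher and 5 lower, the kinase core 2 and 2, and immediate early genes 2 lower. The block with gene-length offsets gave 6 junction regulators, 5 kinase core genes and 4 SRF targets lower. Of the genes in the lists, 8 were under the low-count filter and not tested: TEAD2, VGLL2, MAP4K1, FAT2, DCHS2, FOXF2, CNN1 and EGR3, with 0 to 41 counts over all libraries.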
